A study of Mus musculus with 3 samples.

Results

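CTCF peaks in introns of short genes were taken from the peak list of 1 ChIP-seq library of LSK cells by position alone. The midpoint of such a peak lay in no exon of GENCODE M21 (the annotation of GRCm38, or mm10) and inside a protein-coding gene record shorter than 50 kb. Peaks whose midpoint also lay inside a protein-coding gene record of 50 kb or longer were left out, as were peaks that overlapped a window from 1 kb before to 1 kb after the start (TSS) of any gene record. Of the 18945 peaks in the list, 2281 met these criteria, or 12% (95% Wilson interval 11.6% to 12.5%).

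LSK cells are the lineage-negative bone marrow cells that carry Sca1 and Kit, a population with the hematopoietic stem cells and the multipotent progenitors. They were sorted from adult male C57BL6 mice as cKit+ and Sca1+ cells that were Ter119-, CD45R-, Ly6g-, CD11b-, IL7Ra-, CD8- and CD4-, with no genetic alteration or treatment in the labels, and the chromatin was precipitated with a CTCF antibody. Libraries of input DNA from LSK cells and from MEP cells, the progenitors of megakaryocytes and erythrocytes, belong to the same series and were not analysed here. A peak list holds no transcript levels, so the sort markers could not be checked, and with 1 library there is no replicate: every interval below covers counting error within that library and no p-value was computed.

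CTCF is a zinc finger protein that reads a long DNA motif through a row of fingers. Cohesin extrudes loops of chromatin until it meets bound CTCF, and the motif orientation sets the side from which it is held, so that paired sites facing each other often anchor a loop. Inside transcribed genes, bound CTCF has also been linked to pausing of RNA polymerase II and to the choice of exons, and methylation of a CpG within the motif can block its binding.

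The sites themselves show what was counted. In the lines that follow, the 12 bases of the CTCF core motif are in capitals and the 14 bases to either side are in lower case, read 5′ to 3′ along the strand of the motif from GRCm38.p6, with the coordinates of the 12 bases. The first 4 lines hold the complete core motif, at a strong peak outside the blood lists and at genes of DNA repair, T cell and interferon biology.
Pomgnt2 at chr9:121985301-121985312, minus strand: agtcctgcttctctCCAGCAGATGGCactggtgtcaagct
Xpc at chr6:91509520-91509531, minus strand: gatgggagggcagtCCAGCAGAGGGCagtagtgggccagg
Tbx21 at chr11:97101885-97101896, plus strand: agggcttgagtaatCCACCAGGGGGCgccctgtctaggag
Stat2 at chr10:128284244-128284255, minus strand: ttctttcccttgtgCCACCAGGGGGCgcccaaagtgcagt
The next 3 lines are strong peaks whose best match departs from the core motif at 1 base, which is printed in lower case within the capitals. They show the form that was more frequent among these peaks than the complete motif.
Ccn5 at chr2:163823467-163823478, minus strand: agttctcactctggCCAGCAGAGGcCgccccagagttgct
Prmt1 at chr7:44983261-44983272, plus strand: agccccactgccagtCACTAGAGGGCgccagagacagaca
Mrs2 at chr13:25015420-25015431, plus strand: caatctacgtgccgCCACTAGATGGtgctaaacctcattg
The last 3 lines are each the first copy, by coordinate, of a tandem repeat in which the motif recurs within 1 peak.
Sec22c at chr9:121697658-121697669, plus strand: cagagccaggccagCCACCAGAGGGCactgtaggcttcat
Ctcfl at chr2:173097392-173097403, minus strand: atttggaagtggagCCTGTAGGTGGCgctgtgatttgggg
Eif3b at chr5:140438702-140438713, minus strand: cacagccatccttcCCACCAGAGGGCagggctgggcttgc

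CTCF peaks were denser in introns of short genes than in introns of long genes or between genes. Sequence was counted as eligible where the midpoint of a peak of median width would have met the same criteria. The 166.8 Mb of eligible introns of short genes held 13.7 peaks per Mb (exact Poisson interval 13.1 to 14.2). The 726.2 Mb of introns of genes of 50 kb or longer held 6.32 per Mb (6.14 to 6.5), from 4588 peaks. Between genes there were 5.7 per Mb (5.57 to 5.83), from 7378 peaks. The ratio was 2.16 (exact interval for a ratio of Poisson counts 2.06 to 2.28) against introns of long genes and 2.4 (2.29 to 2.52) against the sequence between genes. Over 5 equal parts of the gene length, G and C made up 43.9% to 44.8% of eligible introns of short genes. In introns of long genes the range was 41.6% to 42.4%, and the part of base composition in the density was not tested.

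The same introns held more core motifs, and a larger share of them lay in a peak. There were 14.3 motif sites per Mb in introns of short genes, 8.63 in introns of long genes and 7.18 between genes. The ratio of site densities was 1.66 (1.58 to 1.74) against introns of long genes, below the ratio for peaks. Of the 2383 sites in introns of short genes, 855 lay entirely inside a peak, or 35.9% (34.0% to 37.8%). The shares were 27.0% of 6264 sites in introns of long genes and 29.3% of 9300 sites between genes. The difference was 8.88 percentage points (Newcombe interval 6.68 to 11.1) from introns of long genes and 6.58 points (4.46 to 8.73) from the sequence between genes. Exons, counted apart from introns and from the windows around gene starts, had a like density of peaks at 13.1 per Mb (12.4 to 13.8), more motif sites at 17.0 per Mb and a lower share of sites in a peak at 29.1% (26.9% to 31.3%). In the plot of densities and shares by kind of sequence, which leaves out exons, the introns of short genes stood highest in all 3 panels.

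**Figure D1:**
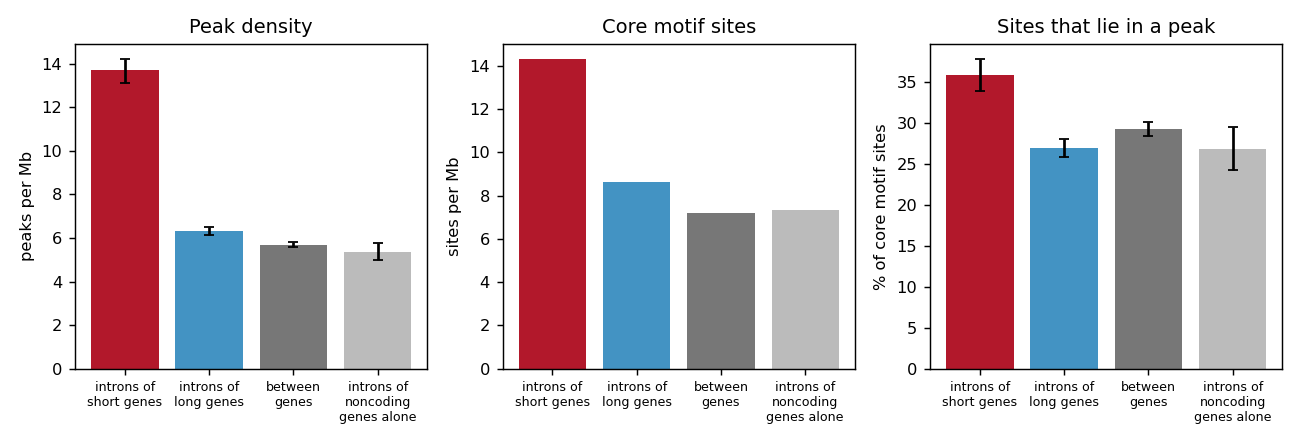
Peaks per Mb of eligible sequence (left), core motif sites per Mb (middle, no error bars) and the percent of those sites that lie in a CTCF peak (right) for 4 kinds of sequence, with 95% exact Poisson (left) and Wilson (right) intervals as error bars. Introns of short genes stood at 13.7 peaks per Mb, 14.3 sites per Mb and 35.9% of sites in a peak.

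As peaks, the members were slightly stronger than those in introns of long genes and had a like share with the complete motif. The authors' fold enrichment, the height of a peak over its background on a linear scale, ran from 2.72 to 33.61 with a median of 10.44 (interval of the median 10.12 to 10.54) and quartiles of 7.83 and 13.7. It was above 10.12, the median over all peaks, in 50.8% of members (48.7% to 52.8%). In introns of long genes this share was 45.1%, which is 5.65 points lower (interval of the difference 3.14 to 8.15), and between genes it was 49.3% (difference 1.44 points, -0.902 to 3.79). The complete core motif was found in 810 members, or 35.5% (33.6% to 37.5%), against 35.7% in introns of long genes (difference -0.235 points, -2.62 to 2.18). With up to 1 mismatch allowed, the share was 85.7% (84.2% to 87.1%) against 83.7% (difference 2.01 points, 0.189 to 3.77). Such matches are also common outside peaks. Of the 43514 sites with up to 1 mismatch in introns of short genes, 5.96% lay in a peak, against 35.9% of the 2383 complete sites. Some matches in members can thus be incidental.

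Where exactly 1 complete motif was present, it mostly sat near the middle of the peak. In these 792 members the median distance to the midpoint was 29 bp, and 93.9% of the motifs lay within 100 bp of it. The median width over all members was 718 bp (313 to 2204 bp). The 810 members with the complete motif had a median fold enrichment of 11.42 (11.09 to 11.75). The 1145 members with a motif that departs from the core at 1 base had a median of 9.79 (9.79 to 10.12). In the other 326 members, with no match at up to 1 mismatch, the median was 9.23 (8.81 to 9.79), and the highest value was 29.37, at Tjp3, which encodes a scaffold protein of tight junctions. The group with no match also held 14.3% of the members (12.9% to 15.8%).

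Repeats and CpG-rich sequence took a small part. Of the members, 185 had over 50% soft-masked (repeat) bases, or 8.11% (7.06% to 9.3%), which is 2.77 points (1.51 to 4.11) above the share in introns of long genes. Between genes a like share of peaks, 7.87%, was masked over more than 50% of bases (difference 0.236 points, -0.993 to 1.57). Only 23 of the 810 members with the complete motif were masked to that extent, or 2.84% (1.9% to 4.22%), against 133 of the 1145 with 1 mismatch, or 11.6% (9.89% to 13.6%). Sequence like a CpG island, with at least 50% G and C and an observed over expected CpG ratio of at least 0.6, made up 43 members, or 1.89% (1.4% to 2.53%). The central 200 bp of no member were identical to those of another peak. The median G and C content of the members was 48.4%, against 45.6% for peaks in introns of long genes.

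The bases within and next to the motif differed between sites in peaks and sites outside them, in the same introns. Positions are counted from 1 at the 5′ end of the 12 bases, along the motif strand, and position 13 is the base after them. The peaks themselves decide which sites are counted as bound, so these values describe the members. A at position 3 was present in 79.8% of sites in peaks and 45.4% of sites outside them. Sites with A at position 3 lay in a peak in 49.6% of cases (46.9% to 52.2%, 1376 sites), and sites with C there in 4.85% (2.73% to 8.47%, 227 sites).

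The widest range was at position 13, just past the core. With G there, 69.6% of 483 sites lay in a peak (65.3% to 73.5%). The share was 41.0% with A (38.1% to 43.8%), 8.13% with C (5.65% to 11.6%) and 6.44% with T (4.49% to 9.15%). Upstream of the core, T at position -3 went with 53.4% of sites in a peak (49.7% to 57.0%, 727 sites), and A at that position with 21.2% (18% to 24.7%, 567 sites). At position 14, C went with 50.7% (47.2% to 54.3%) and T with 12.5% (9.97% to 15.6%).

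Among complete words of the motif, the most frequent was not the one most often bound. The 792 members with exactly 1 complete motif held 50 different words. CCAGCAGAGGGC was the most frequent, in 88 of them, and 38.1% of its 239 sites in introns of short genes lay in a peak (32.2% to 44.4%). CCACTAGGGGGC was found in 42 members, and 81.1% of its 53 sites lay in a peak (68.6% to 89.4%). CCAGTAGAGGGC had 134 sites and 17.2% of them in a peak (11.7% to 24.4%). The word in capitals in the Tbx21 and Stat2 lines above, CCACCAGGGGGC, was in 77 members, with 74.3% of 113 sites in a peak (65.6% to 81.5%).

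Sites with a CpG at the end of the core were in peaks more often than sites without one. CpG dinucleotides were counted over the core motif and the base after it. Position 12 is always C, so G at position 13 makes a CpG, and this contrast largely restates the one at that position. A CpG there and none inside the core was found at 443 sites, of which 68.8% lay in a peak (64.4% to 73.0%). A CpG inside the core alone was found at 124 sites, of which 20.2% lay in a peak (14% to 28.1%), against 27.8% without any CpG (difference -7.65 points, -14.1 to 0.512). By number of CpG, 27.8% of 1776 sites without any (25.8% to 29.9%) lay in a peak, 58.2% of 567 sites with 1 CpG (54.1% to 62.2%), and 77.5% of 40 sites with 2 or more (62.5% to 87.7%). The difference between 1 CpG and none was 30.4 points (25.8 to 34.9). A CpG was present in 25.5% of sites in introns of short genes and in 20.8% of sites in introns of long genes. Among sites without CpG alone, the share in peaks was still 6.31 points (3.96 to 8.71) higher in introns of short genes than in introns of long genes, and among sites with 1 CpG it was 10.9 points higher (5.97 to 15.8). DNA methylation was not measured in these data, and its part in these shares was not tested.

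**Figure D2:**
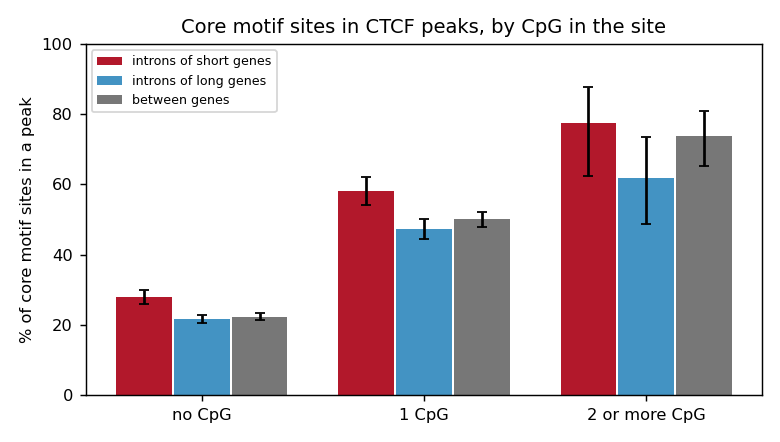
Percent of core motif sites that lie in a CTCF peak (y axis) by the number of CpG dinucleotides in the site (x axis) and kind of sequence (colors), with 95% Wilson intervals as error bars. In introns of short genes the share was 27.8% with no CpG, 58.2% with 1 and 77.5% with 2 or more, and the intervals of the 3 kinds of sequence overlap for 2 or more.

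Peaks became denser toward the 3′ end of the host gene. The 2236 members inside exactly 1 short gene were placed in 5 equal parts of its length, and the eligible introns in the same parts. Density was 10.8 peaks per Mb (9.55 to 12.1) in the first part, 11.6 in the second, 13.4 in the third, 15.2 in the fourth and 18.1 (16.4 to 19.9) in the last. The last part was thus at 1.68 times the first (1.44 to 1.96). Motif sites rose alongside, from 10.9 to 18.6 per Mb (ratio 1.71, 1.46 to 1.99). The share of sites in a peak was 30.7% (25.7% to 36.3%) in the first part and 45.1% (40.4% to 49.8%) in the last, a difference of 14.3 points (7.06 to 21.2). Copies of the motif within 1 peak count as separate sites in these values and their intervals. The last part had 196 sites in peaks but 168 members with the complete motif, and the first part 87 and 84. The shares by part were not computed without such copies. The G and C content of the eligible sequence moved with the position as well, from 43.9% to 44.8%, and its part in the density was not tested.

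A rise of this kind was not particular to short genes. In introns of long genes the last part was at 1.76 times the first (1.6 to 1.93), with motif sites at 1.4 times (1.29 to 1.52). Median fold enrichment along short genes stayed between 9.79 and 10.66 with no steady trend. The share of members with the complete motif was 30% (24.9% to 35.6%) in the first part and 39.6% (35.1% to 44.4%) in the last.

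**Figure D3:**
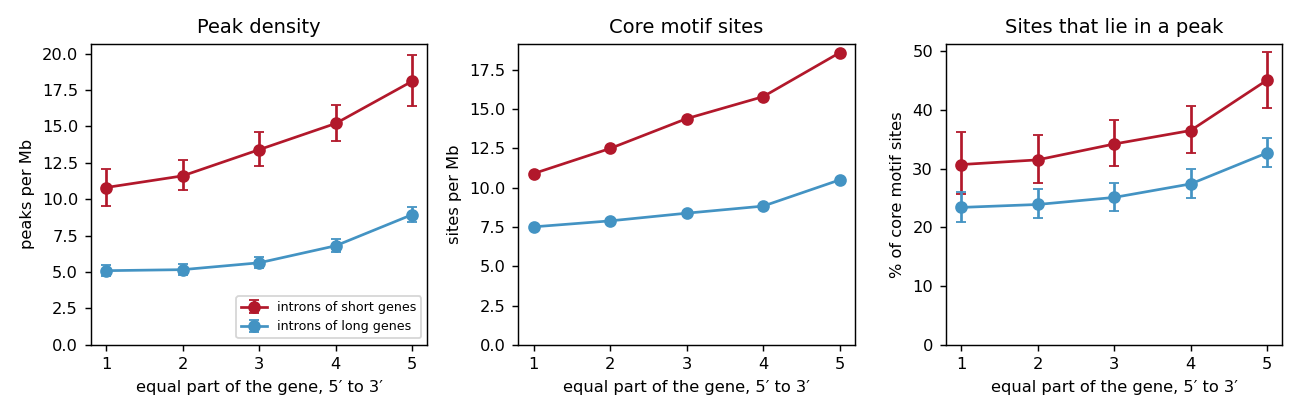
Peaks per Mb of eligible sequence (left), core motif sites per Mb (middle, no error bars) and percent of sites in a peak (right) by position in the host gene in 5 equal parts from 5′ to 3′ (x axis), for introns of short genes (red) and long genes (blue), with 95% intervals as error bars. In short genes density went from 10.8 to 18.1 peaks per Mb and the share of sites in a peak from 30.7% to 45.1%. Every copy of the motif within a peak counts as a site.

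First introns held fewer peaks than their length would give. With 1 transcript chosen per gene, 2082 members lay in one of its introns and 154 members with 1 host gene lay only in introns of other transcripts. The first intron held 457 of the 2082, or 22.0% (20.2% to 23.8%), and 27.7% of the eligible bases. Middle introns held 65.9% of peaks and 59.7% of bases, and last introns 12.2% of peaks and 12.7% of bases. Density was 10.5, 14.7 and 12.8 peaks per Mb in first, middle and last introns.

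Members were often close to exons. The median distance from the peak midpoint to the nearest exon was 674 bp (quartiles 220 and 1641 bp). Of the members with 1 host gene, 928 lay within 500 bp of an exon, or 41.5% (39.5% to 43.6%), where 34.4% of the eligible bases lie. The exclusion around gene starts covers gene records and not every transcript. Starts of further transcripts lay within 1 kb of 324 members, or 14.2% (12.8% to 15.7%), and the complete motif was in 36.1% of these (31.1% to 41.5%) and 35.4% of the rest (33.3% to 37.6%). Their median fold enrichment was 11.09, against 10.12 for the rest.

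Over all introns, no preference of the motif for a strand relative to transcription was detectable. Of 776 members with 1 host gene and 1 complete motif, 386 had it on the sense strand, or 49.7% (46.2% to 53.3%). Among sites outside peaks in the same introns the share was 51.3% (48.8% to 53.8%), which leaves a difference of -1.59 points (-5.91 to 2.74). The sense share was 42.1% in first introns (34.3% to 50.4%, 140 members) and 52.1% in later introns (48.1% to 56.2%, 585 members), a difference of -9.99 points (-18.8 to -0.775) for 1 of several splits of the members that were examined.

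The members lay in 1948 host genes, which is 11.6% (11.1% to 12.1%) of the 16755 short protein-coding genes, and this share is the background for every list below. Of the 13912 genes with any eligible sequence, 14% were hosts. The share went with gene length, from 0.64% of genes under 5 kb (0.437% to 0.936%) and 12.8% of genes of 10 to 20 kb (11.8% to 13.8%) to 28.1% of genes of 40 to 50 kb (25.5% to 30.8%). Density per eligible base ran the other way at the long end, at 16.4 peaks per Mb for genes of 10 to 20 kb and 10.7 for genes of 40 to 50 kb. Host genes had a median length of 25310 bp, against 11297 bp for all short genes.

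Genes with several peaks were few. A total of 1628 genes had 1 peak, 272 had 2, 36 had 3 and 12 had 4. The 5 with the most, ordered among ties by their highest fold enrichment, were Tmem189, Gm44511, D630003M21Rik, Tmem44 and Agap3, with 4 each. Agap3, which encodes a GTPase-activating protein for ARF proteins, had fold enrichments of 16.64, 6.53, 10.77 and 11.75 from 5′ to 3′, the first in intron 1 and the others in introns 8 and 9. In Tmem44 the values were 10.54, 10.77, 5.22 and 16.97 from 5′ to 3′, and all 4 peaks held 1 complete motif, on the plus strand in the first and on the minus strand in the others. In Gm44511, named by its gene model, all 4 peaks lay in the third intron of 36005 bp, at 6.53, 11.09, 17.29 and 17.29. The 4 peaks of Tmem189, an enzyme gene of plasmalogen synthesis, lay in no intron of its chosen transcript and within the first 14480 bp of a record of 47215 bp. In the map of these genes, the peaks of Tmem189 lay between 9.5% and 30.7% of the gene length and those of the others between 28.8% and 77.1%.

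**Figure D4:**
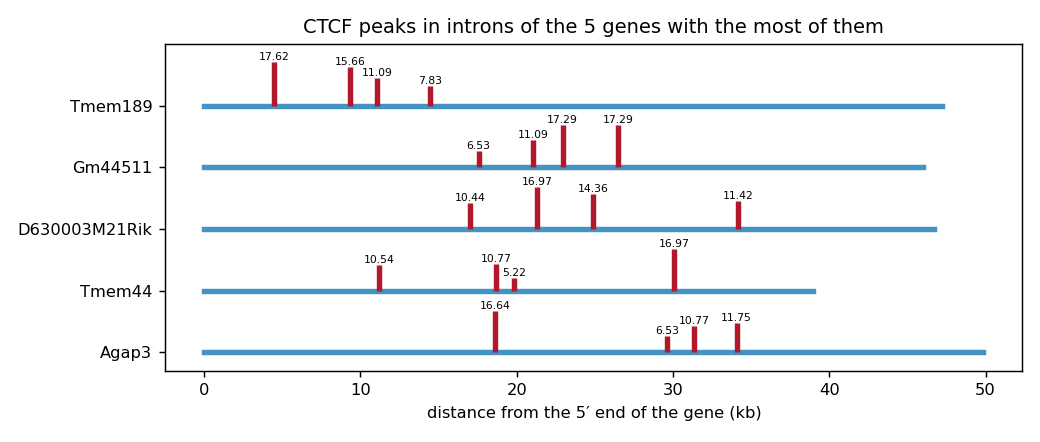
The 5 host genes with the most intron peaks, each drawn as a blue line from its 5′ end with distance in kb on the x axis, and each peak as a red bar whose height and number give the authors' fold enrichment. Each gene holds 4 peaks, with fold enrichments from 5.22 to 17.62.

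Each of 13 gene lists was described by the number of their short genes with an intron peak, beside the number that the share of all short genes in the same length class would give. Over the lists, 55 of 382 genes were hosts, or 14.4% (11.2% to 18.3%), against the 11.6% of all short genes. The 11.6% takes no account of gene length, and a total by length was not computed. The lists differ in gene length, and none was tested.

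Among stem and progenitor genes, 5 of 27 had an intron peak, where the share by length gives 2.68. The strongest was in Junb, a subunit of the AP-1 transcription factor, at a fold enrichment of 21.21 from chr8:84975271-84976011. Junb has no intron in its chosen transcript, and this peak lies 1157 bp from the 3′ end of the longer gene record. Spi1, which encodes PU.1, a transcription factor of myeloid and B cells, had 1 at 13.38 in intron 2, 19185 bp from the gene start. Cd48, a surface protein used to sort stem and progenitor cells, had 1 at 10.44, and Mycn, a transcription factor of the MYC family, 1 at 8.81. None of these 4 peaks held the complete motif, which 35.5% of all members held, and 4 peaks are too few to show a difference.

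Of 29 erythroid genes 6 were hosts, where length gives 3.77. Nfe2, a transcription factor of erythroid cells and megakaryocytes, had a peak at 19.9 in its second intron, chr15:103250005-103250811, and counts in the megakaryocyte list too. Dmtn, a protein of the red cell membrane skeleton, had 1 at 18.27 in its first intron. Rhag, part of the Rh complex of the red cell membrane, had 1 at 11.42 and Trim58, a ubiquitin ligase of late erythroid cells, 1 at 10.86. The complete motif was present at Rhag and Trim58. In the megakaryocyte and platelet list 2 of 23 were hosts, where length gives 2.3, the second being Selp (P-selectin, an adhesion protein of platelets and endothelium) at 10.12.

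Of 34 granulocyte and monocyte genes 5 had an intron peak, where length gives 2.81. Csf2rb, the shared beta chain of the receptors for IL3, IL5 and GM-CSF, stood first at 20.56. It has a close paralog beside it, and how many reads map to both was not tested. Mmp9, a neutrophil gelatinase, followed at 17.95 in intron 11, with the midpoint 37 bp from an exon. Ncf4, a subunit of the phagocyte NADPH oxidase, had a peak at 13.38, the same value as that of Spi1, which is also in this list. In the lymphoid list 5 of 25 were hosts, where length gives 3.2. They included Dntt, the terminal transferase of antigen receptor rearrangement, at 11.75, Tcf7, a transcription factor of early T cells, at 11.43, Tbx21, the regulator of Th1 cells, at 10.12, and Lck, a kinase of T cell receptor signaling, at 7.5.

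Lists of cell functions gave counts on both sides of the number by length. In cytokine and growth factor signaling 4 of 26 were hosts, where length gives 4.07, among them Stat2 at 9.79 and Ifnar2, a chain of the interferon receptor, at 5.87. In cell cycle and apoptosis 5 of 30 were hosts, where length gives 2.81, with the D cyclins Ccnd1 at 16.31 and Ccnd2 at 12.73, E2f2, a transcription factor of S phase entry, at 7.93, and Bbc3, which encodes the apoptosis inducer PUMA, at 7.83. In DNA repair 6 of 27 were hosts, where length gives 4.79. Xpc, which recognizes damage in nucleotide excision repair, stood at 17.29, Xrcc1, a scaffold of single-strand break repair, at 16.31, Nbn, of the MRN complex, at 11.09, and Fancg, of the Fanconi anemia core complex, at 7.5.

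The 2 lists with the lowest counts against length were those of CTCF with its partners and of splicing. In the list of CTCF, cohesin and condensin 2 of 21 were hosts, where length gives 4.49. These were Zfp143, a zinc finger protein found with CTCF at loop anchors, at 14.03, and Ctcfl, the testis paralog of CTCF, at 12.4 and 7.83. In splicing and RNA processing 1 of 37 was a host, Luc7l, a U1 snRNP-associated factor, at 6.85, where length gives 5.08. Of 28 genes of DNA methylation, Polycomb and histone modification 4 were hosts, where length gives 4.28. They were Dot1l, the H3K79 methyltransferase, at 15.66, Setd1b at 10.12, Ehmt2, an H3K9 methyltransferase, at 9.39, and Ezh1, a catalytic subunit of PRC2, at 9.0. In vesicle transport 7 of 42 were hosts, where length gives 7.53, led by Sec22c at 33.61 and Arf1 at 9.14. Of 39 genes of mitochondrial ribosomal proteins and complex I 5 were hosts, where length gives 3.06, led by Mrps11 at 15.99.

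**Figure D5:**
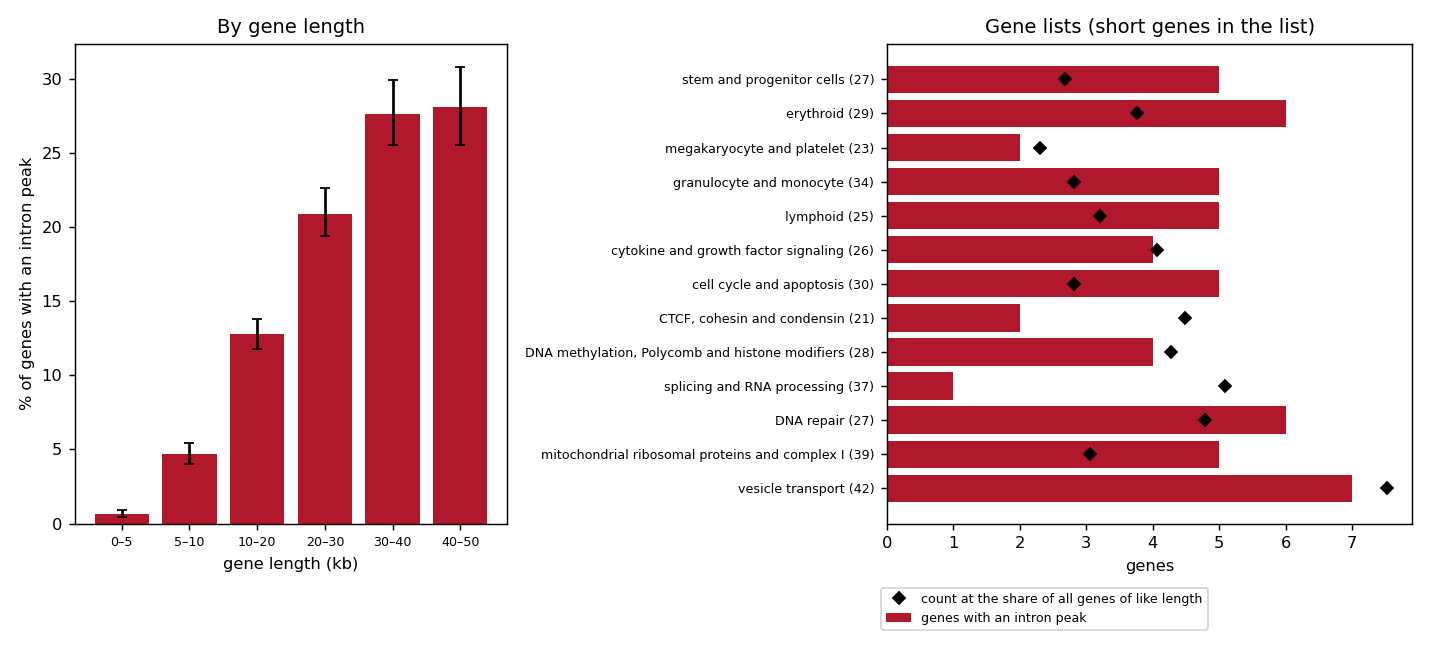
Left, percent of short protein-coding genes with an intron peak (y axis) by gene length in kb (x axis), with 95% Wilson intervals as error bars. Right, genes with an intron peak in each list (bars, x axis), with the number of short genes in parentheses and the number expected from the share of all short genes of like length as diamonds, from 1 against 5.08 in splicing to 5 against 2.68 in stem and progenitor cells.

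The 10 members highest in fold enrichment lay in genes outside the blood lineage lists. Those lists held only 2 to 6 hosts each among the 1948 host genes, so few or none would be met among any 10 members. They ran from 26.76 to 33.61. Sec22c, a protein of transport between endoplasmic reticulum and Golgi, was first at 33.61 (chr9:121697292-121698340), with a −log10 p-value of 167.664. Ccn5, a secreted matricellular protein, followed at 32.96, Fgf20, a growth factor, at 30.02, and Tjp3 at 29.37. Pomgnt2, a glycosyltransferase that acts on dystroglycan, stood at 28.06. Ethe1, a mitochondrial sulfur dioxygenase, stood at 27.74, the same value as the peak shared by Nans, the sialic acid synthase, and Trim14, which overlap on opposite strands. Pla2g1b, a secreted phospholipase, and Prmt1, the main arginine methyltransferase, were at 27.41 each, and Mrs2, the magnesium channel of mitochondria, at 26.76.

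Of these 10 peaks those at Sec22c and Pomgnt2 held the complete motif. Over all members the share was 35.5%, and 10 peaks are too few to show a difference from it. At Ccn5, Fgf20, Ethe1, Prmt1, Mrs2 and the shared Nans and Trim14 peak, a site with 1 mismatch lay between 1 and 87 bp from the peak midpoint. The mismatch was at position 11 at Ccn5, at position 1 at Prmt1 and at position 12 at Mrs2, as the lower-case letters in their lines above show. Pla2g1b and Mrs2 had soft-masked bases over 52.0% and 72.9% of the peak.

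At the ends of genes, ranked by position as a percent of gene length, the first midpoints (2.98%, 3.37% and 3.62%) lay 1370 bp into Nisch, 1397 bp into Zfp37 and 1461 bp into Ptges, a prostaglandin E synthase, each a gene of over 40 kb. Their fold enrichments were 11.18, 6.85 and 13.05. All 3 lay in no intron of the chosen transcript. By the same ranking the last midpoints (99.0%, 98.8% and 98.6%) lay in the last intron, 422 bp before the end of Pla2g7 (10.77), 451 bp before the end of Snx1 (10.12) and 527 bp before that of Arhgap40 (12.07).

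Neighboring peaks in the same gene gave 359 counted pairs with a median spacing of 5137 bp between midpoints. The peaks per gene given above allow more pairs, so the count does not cover every pair in every host gene. In 49 of the 359 pairs each peak held exactly 1 complete motif. The motifs pointed toward each other (convergent) in 14 pairs, or 28.6% (17.8% to 42.4%), away from each other (divergent) in 12, or 24.5% (14.6% to 38.1%), and the same way (tandem) in 23, or 46.9% (33.7% to 60.6%). Strands placed at random would make tandem pairs as frequent as convergent and divergent pairs together, and the counts were near that split. A preference for an arrangement was not tested. Median spacing was 13531 bp for convergent, 7471 bp for divergent and 5847 bp for tandem pairs.

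The convergent pairs with the highest lower fold enrichment were in Lmo1, Csk and Sh3tc1. Lmo1, a LIM-only transcription cofactor, had peaks of 16.31 each, 31107 bp apart. Csk, the kinase that restrains SRC family kinases, had peaks of 20.23 and 15.99, 16272 bp apart, and its 2 sites are shown here to give the orientation, each along its own strand.
Csk at chr9:57629433-57629444, plus strand: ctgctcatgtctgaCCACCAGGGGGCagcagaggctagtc
Csk at chr9:57645697-57645708, minus strand: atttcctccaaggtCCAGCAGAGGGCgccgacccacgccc
The divergent pairs were in Mlxipl, the glucose-responsive transcription factor ChREBP, at 10.77 and 14.68, in Tmem44 and in Plekhg5. The tandem pairs were in Gm44511, Anks6, a protein of cilia, at 16.64 and 16.31, and D2hgdh, an enzyme that oxidizes D-2-hydroxyglutarate, at 15.34 and 15.99. Contacts between such sites were not measured in these data.

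The complete motif recurred at an even spacing in 3 members. Eif3b, a translation initiation factor gene, held 15 copies on the minus strand, each 66 bp from the next, in a peak of 1236 bp with a fold enrichment of 7.83. The peak at Sec22c held 7 copies on the plus strand at a spacing of 45 bp, and the second peak of Ctcfl held 6 copies on the minus strand at a spacing of 32 bp (7.83). Fold enrichment among these arrays thus ran from 7.83, the lower quartile of the members, with 15 and with 6 copies, to 33.61 with 7 copies. Reads that map to several places were kept by the authors, and how many reads of these peaks do so was not tested.

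Members were spread over all autosomes and were few on the X chromosome. Autosomes had 8.74 (Chromosome 13) to 16.9 (Chromosome 15) members per Mb of eligible sequence, and Chromosome X had 15 members on 6.26 Mb, or 2.4 per Mb. Of the 43 motif sites in eligible introns of the X chromosome 5 lay in a peak, or 11.6% (5.07% to 24.5%), against 28.4% to 46.8% on the autosomes. The median fold enrichment of the X-linked members was 7.83. A male cell has 1 copy of the X chromosome, and the part of copy number in these values was not tested.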

How the data were processed

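CTCF ChIP-seq was measured in 1 library of LSK cells, and the input libraries were not analysed here. The authors mapped the reads to mm10 with Bowtie (version 1.0.0 in the submitters' processing notes, another in the paper's methods), kept reads that map to several places, removed those on ChrM and unplaced chromosomes, and called peaks with MACS. For the MACS settings and the use of an input, a statement was not given in the sources used. The deposited list has no header. Its fold enrichment was read as a linear ratio and its p-value as −log10, by the authors' peak caller, and the deposited false discovery rate was not used. Read depth per peak is unknown. Start coordinates were read as counted from 0 and are printed counted from 1.

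Everything else was computed with pandas 2.3.3, numpy 2.4.6, matplotlib 3.10.9 and scipy 1.17.1 under Python 3.11.15, on GRCm38.p6 (RefSeq) and GENCODE M21. Exons were those of every gene record. For eligible sequence, TSS windows were widened by 357 bp, the median peak width divided by 2 and rounded down. The CTCF core motif of 12 bases was searched on both strands, with soft-masked bases included. The chosen transcript was the protein-coding one with the best APPRIS tag, then the longest. Shares have 95% Wilson, differences Newcombe and densities exact Poisson intervals, for counting error only, and medians order-statistic intervals. Steps were tested on simulated data.

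Members and gene lists were chosen with earlier results of these data known. Named genes were the hosts of the 10 members highest in fold enrichment, the 5 with the most peaks, up to 4 per list by fold enrichment, 3 at each end by position as a percent of gene length and 3 pairs per motif arrangement, and some of these are not reported here. The motif arrays fall outside this rule and were chosen after their values were seen, as were those sequences. Alternatives were a stricter p-value, other length limits, TSS windows, exon rules, motif settings, transcripts and rankings. A further 2 were added after the data were seen, on sites without CpG and without motif arrays.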

Additional observations from a re-analysis of the deposited data

How the results depend on the processing

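Of 46 recomputed values 32 stayed within the 95% interval of the reported value and 14 moved outside it. No difference whose interval excluded 0, and no density ratio, turned direction. With peaks at a −log10 p-value of 10 or more, the density ratio of short over long genes was 2.4, the first intron share lay 8.03 points below its share of bases (-8.03, against -5.74 as reported) and 7.99% of short genes were hosts. Other length limits moved what they define: with 30 kb, 7.08% of peaks were members, 8.51% of genes were hosts and the first intron difference was -3.85 points, and with 100 kb the shares were 19.7% and 15.5%. A TSS window of 2 kb left 10.9% of peaks and 10.6% of genes, and peaks that overlap no exon by any base were 7.91% of peaks, in 8.03% of genes. For sites with up to 1 mismatch the occupancy difference was 2.18 points, on shares of 5.96% and 3.78%, and for sites without CpG, an alternative added after the data were seen, it was 6.31 points. Without peaks that hold 3 or more core motifs, also added afterwards, it was 8.13 points. The share of members above the median fold enrichment was 49.0% with a limit of 100 kb, against 50.8% as reported, and the sense share was 50.2% with the motif in the central 200 bp, against 49.7%. The density ratio stayed between 2.08 and 2.4 under every alternative run for it. The difference in the complete motif's share, with an interval that held 0 as reported (-0.235 points), was above 0 with a TSS window of 2 kb (0.379) and without peaks over 50% masked (0.684). Its interval did not hold 0 with a limit of 100 kb (-2.37 points, -4.65 to -0.1) or with 1 mismatch allowed (2.01 points, 0.189 to 3.77). No paired analysis was possible because the peak list comes from 1 library, and for the same reason no replicate could be left out.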

Other observations

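The central 200 bp of the members were also searched, on both strands, for short words of 8 other factors, beside windows of the same length 2 kb to either side of each member (4562 windows). YY1, whose word AAGATGGC shares the letters AGATGGC with some words of the CTCF core motif, was found in 1.97% of members (95% Wilson interval 1.48% to 2.63%) and 1.27% of windows (0.985% to 1.64%). In the complete core motif the base before those letters is C or T, so it cannot contain the whole YY1 word. The erythroid and progenitor GATA word AGATAA was in 7.94% (6.9% to 9.12%) and 8.51% (7.73% to 9.35%), the RUNX word TGTGGT in 17.8% (16.3% to 19.5%) and 16.7% (15.7% to 17.9%), and the PU.1 word GAGGAAGT in 1.05% (0.708% to 1.56%) and 1.27% (0.985% to 1.64%). AP-1 (TGANTCA) was in 5.0% of members (4.18% to 5.97%) and 6.05% of windows (5.39% to 6.78%). The intervals of members and windows also overlapped for the GC box (GGGCGG, 5.22% and 5.44%), the E-box (CAGCTG, 12.1% and 10.9%) and CEBP (TTGCNNAA, 6.31% and 6.25%). Against peaks in introns of long genes, CEBP was the word with separate intervals, at 6.31% (5.39% to 7.39%) and 8.41% (7.64% to 9.25%). The median G and C content was 50% in the central 200 bp and 48.5% in the windows, and its part in these shares was not tested. A match is a run of letters and says nothing of binding by the factor.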
